A study of Homo sapiens with 9 samples.

Results

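The heat shock proteins and J-domain chaperones of MP41 cells are described here, in 70 of the 14839 genes of the deposited table. MP41 is a human uveal melanoma cell line with a GNA11 mutation. The members were chosen by name: symbols of the DNAJA, DNAJB, DNAJC, HSPA, HSPB, HSPD, HSPE, HSPH and HSP90 families and CRYAB, without antisense genes and without pseudogenes whose symbol ends in P and a number. These exclusions set aside 18 further rows of the same families. The rule reads symbols alone, but it was set with earlier results of these data known. Of the 70 members, 39 carry a DNAJ symbol, 64 are protein-coding and 6 are annotated HSP90 pseudogenes that the naming rule keeps.

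MP41 cells were transfected with synthetic miR-16 or with a control mimic (miR-CTR), each at 66 nM, and harvested after 6, 12, 24 and 48 h. A further culture, labelled with miR-CTR, was harvested at 0 h, before transfection. The cells were grown in RPMI-1640 with serum, and Lipofectamine RNAiMAX carried the mimics. Polyadenylated RNA of each of the 9 conditions was sequenced as 1 library, so there are no replicates. No p-value belongs to a difference at 1 time or in 1 window. Each error given below is 1 standard error of read counting alone, which leaves out differences between cultures, unless it is said to come from the fit over the 4 times. The table numbers the harvests without giving hours, and they were read in ascending order.

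The value of a gene is log2 of its normalized reads plus 1. The libraries held an estimated 20250000 to 27350000 reads in the table, and the median gene had 486 to 674 reads. The 7 melanocyte markers examined (MLANA, PMEL, TYR, TYRP1, DCT, MITF and SOX10) stood between 12.29 and 17.88 in every library. Of the 6 markers of other cell types, PTPRC, PECAM1, EPCAM, KRT18 and DCN are not among the rows of the table, while COL1A1 stood between 8.04 and 8.86. In bulk RNA such as this, fewer cells with a transcript and less of that transcript per cell cannot be told apart.

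Chaperones help other proteins to fold, to assemble and to pass membranes. HSP70 proteins bind exposed stretches of a client and release them in a cycle driven by ATP, J-domain proteins bring clients to HSP70 and trigger its ATPase, HSP110 proteins exchange the nucleotide, and HSP90 takes over clients at a late step of folding, among them many kinases. Small heat shock proteins hold unfolded proteins without using ATP, and HSPD1 with its lid HSPE1 folds proteins inside mitochondria. Heat shock factor 1 (HSF1) drives the inducible members, and the unfolded protein response drives those of the endoplasmic reticulum.

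A microRNA such as miR-16 triggers decay of messenger RNAs mainly through its seed, here bases 2 to 8. The study reports that miR-16 bound a subset of RNAs mainly by other, non-canonical pairing, which was not searched for here. The mature human sequence from RefSeq is shown first, with the seed in capitals, and then the miR-16 seed matches in the 3′UTRs of the 3 lower members that hold one and of the other members with an 8mer. In the 3′UTR sequences the capitals mark the bases that match the seed, and in the 8mers also the A opposite base 1. A 7mer-m8 pairs with bases 2 to 8, and a 7mer-A1 pairs with bases 2 to 7 and has that A.
miR-16: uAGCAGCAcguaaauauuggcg
DNAJB4, 8mer, chr1:78016713-78016720: accttctgaaaTGCTGCTAtagggctggta
DNAJB4, 7mer-m8, chr1:78017196-78017202: taaacactaacTGCTGCTtatggataatg
DNAJB4, 7mer-m8, chr1:78017953-78017959: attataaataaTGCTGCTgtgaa
DNAJC5, 7mer-m8, chr20:63934570-63934576: ttcacggcagcTGCTGCTgtatagatttg
DNAJC5, 7mer-m8, chr20:63935239-63935245: agtgtcattcaTGCTGCTgtcccctggtg
DNAJC9, 7mer-m8, chr10:73243067-73243073: ggttctgttcaTGCTGCTttctgcgatgt
HSPA4L, 8mer, chr4:127833587-127833594: tgaagactagcTGCTGCTAaaacaatgcta
DNAJC10, 8mer, chr2:182789069-182789076: ttatttaccaaTGCTGCTAgaccctgacaa
DNAJC10, 8mer, chr2:182789628-182789635: attgcaaataaTGCTGCTAtaaacatgggt

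Coordinates are those of the matched bases in GRCh38, and each match was read from the longest annotated 3′UTR of the gene in GENCODE version 29. The DNAJC9 site lies on the minus strand and the other sites on the plus strand. The last DNAJB4 match ends 5 bases before the end of its 3′UTR, so its sequence is shorter. At least 1 site was present in 20 of the 63 members with an annotated 3′UTR, or 31.7% (exact 95% interval 20.6 to 44.7%), beside 29.2% of 11584 protein-coding genes. An 8mer was present in 3 members, or 4.76%, beside 4.96% of all these genes. The members as a group thus held seed sites at a share whose interval includes that of all genes.

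Before transfection the members covered a range of levels from 35300 to 5.72 normalized reads per kilobase of merged exons. HSP90AA1, the inducible cytosolic HSP90, was the highest with 35300 and ranked 14 among all genes with a length. HSPA8, the constitutive cytosolic HSP70, followed with 19700, and HSP90AB1, the constitutive HSP90, with 13600. HSPD1 stood at 9770, HSP90B1 (the HSP90 of the endoplasmic reticulum, also called GRP94) at 8590, HSPB1 at 7760 and HSPA5 (BiP, the HSP70 of the same compartment) at 7660. These levels depend on the length used. Per kilobase of the longest transcript HSP90AA1 stood at 52800, HSPA8 at 38700, HSPD1 at 16900 and HSP90AB1 at 15200, so that HSPD1 passed HSP90AB1. The highest J-domain gene was DNAJA1, a partner of cytosolic HSP70, with 4300. The stress-inducible HSP70 genes were much lower on this scale, with 651 for HSPA1A, 268 for HSPA1B and 14.5 for HSPA6. HSPA1A and HSPA1B encode almost the same protein, so reads that fit both cannot be assigned with certainty, and their separate values are uncertain.

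**Figure D1:**
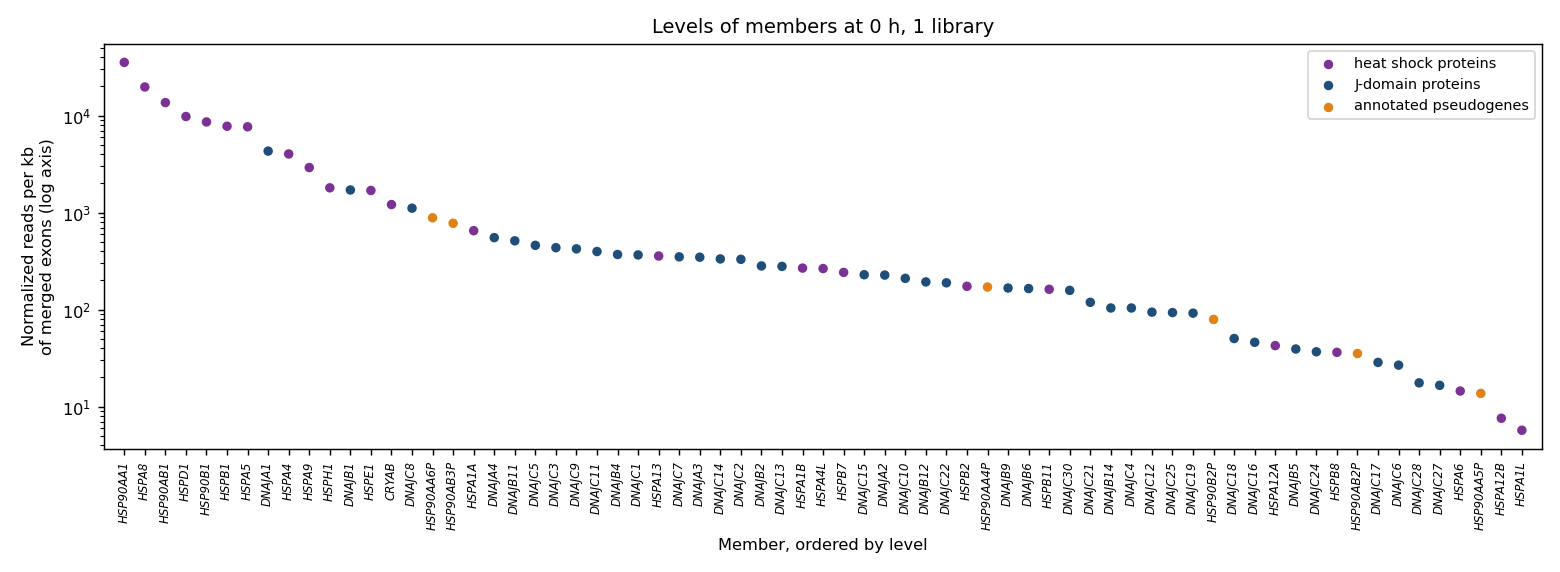
Levels of 69 members in the 0 h library, in normalized reads per kilobase of merged exons on a log axis, 1 point per member; HSPA14 has no length because its symbol was not matched to 1 gene. The 7 highest members are heat shock proteins, from HSP90AA1 at 35300 to HSPA5 at 7660, and DNAJA1 at 4300 is the first J-domain gene.

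The members together took 2.6% of the reads at 0 h. This share was 2.29% and 2.5% in the miR-CTR libraries at 6 and 12 h, 2.0% at 24 h and 1.69% at 48 h. In the miR-16 libraries it was 2.24%, 2.48%, 1.91% and 1.71% at the same times. Both mimic series thus ended about equally far below the 0 h library.

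The main comparison is that between miR-16 and miR-CTR at the same time. A member is called lower or higher when the difference, miR-16 minus miR-CTR, is past 0.5 in size on the log2 scale. The late difference is the mean over 24 and 48 h, the early difference that over 6 and 12 h. In the late window DNAJB4, DNAJC5, DNAJC9 and HSPA1A were lower after miR-16, and CRYAB, HSPB2, HSPA6, HSPA12B and the pseudogenes HSP90AA5P and HSP90AB2P were higher. The 4 lower members are 5.71% of the 70, where 5.73% of all genes were lower. The 6 higher members are 8.57%, where 7.76% of all genes were higher. Both shares are near the background. Without the lowest 25% of genes by mean value, which hold 8 members, CRYAB and HSPB2 were the 2 higher members left, and the 4 lower ones stayed. The median late difference was −0.012 in the members and 0.005 in all genes.

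In the early window 1 member (DNAJB4) was lower, where 1.45% of all genes were, and 2 members (HSP90AA5P and HSP90AB2P) were higher, where 2.04% of all genes were. At 6 h, 2 members were lower beside a background of 3.34%, and 3 were higher beside 3.38%. The counts at 12 h were 3 lower beside 2.53% and 2 higher beside 3.31%. They were 3 lower beside 5.26% and 4 higher beside 7.24% at 24 h, and 5 lower beside 8.96% and 9 higher beside 10.4% at 48 h. In the members these counts are shares of 2.86 to 7.14% lower and 2.86 to 12.9% higher, and they lay near the shares of all genes at each time.

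**Figure D2:**
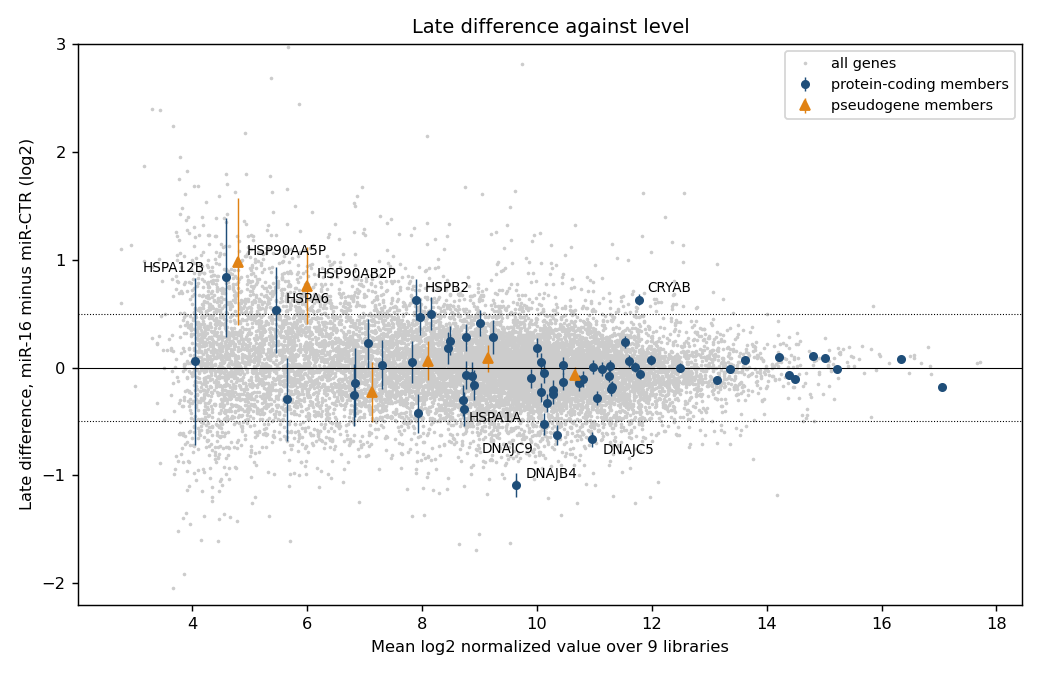
Late difference of each gene (miR-16 minus miR-CTR, log2) against its mean value over 9 libraries; grey points are all genes, blue points protein-coding members, orange triangles pseudogene members, and bars on members are 95% counting intervals. DNAJB4 at −1.09 is the lowest member, CRYAB at 0.63 is the only higher member with a mean value above 10, and the other higher members lie at lower levels with wider bars.

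DNAJB4 (ENSG00000162616.8, chromosome 1, 77979175 to 78017964, plus strand) encodes a class B J-domain protein that works with cytosolic HSP70. Its value was 10.45 at 0 h, then 10.03, 10.07, 10.03 and 9.85 after miR-CTR, and 9.33, 9.32, 8.89 and 8.81 after miR-16 at 6, 12, 24 and 48 h. All 4 miR-16 libraries were below all 4 transfected miR-CTR libraries, and the gap was already present at 6 h. In the order of the harvests the differences were −0.70 ± 0.0749, −0.75 ± 0.0694, −1.14 ± 0.0818 and −1.04 ± 0.0825. The late difference was −1.09 ± 0.0581, a level 0.47 times that with miR-CTR. Relative to 0 h the late level was 70.2% after miR-CTR and 33.0% after miR-16, so DNAJB4 was lower late in both series and by more after miR-16. It holds the 3 seed matches shown above, more than any other lower member.

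DNAJC5 (ENSG00000101152.10, chromosome 20, 63895182 to 63936031, plus strand) encodes cysteine string protein, a J-domain protein of synaptic and secretory vesicles. It stood at 11.25 at 0 h, at 11.21, 11.11, 11.16 and 11.07 after miR-CTR and at 11.13, 10.84, 10.57 and 10.33 after miR-16. After miR-CTR the gene stayed near its value at 0 h, while after miR-16 each later library was lower than the one before. Only the 6 h library of miR-16 reached the miR-CTR range. The late difference was −0.665 ± 0.0351.

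DNAJC9 (ENSG00000213551.4, chromosome 10, 73183362 to 73248862, minus strand) encodes a J-domain protein that binds histones. Its values were 10.71 at 0 h, 10.93, 10.59, 10.36 and 10.21 after miR-CTR and 10.8, 10.21, 9.89 and 9.43 after miR-16. The gene was lower late than at 0 h in both series, and the groups overlapped through the 6 and 12 h libraries of miR-16. The late difference was −0.625 ± 0.0465. It rests on both times unequally, with −0.47 at 24 h and −0.78 at 48 h, and was −0.13 at 6 h. The exons of DNAJC9 share 182 bases with the antisense gene DNAJC9-AS1, and reads of that stretch cannot be told apart unless strand was used in counting, which is not given in the sources used here.

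HSPA1A (ENSG00000204389.9, chromosome 6, 31815464 to 31817946, plus strand) encodes the major stress-inducible HSP70. It stood at 10.66 at 0 h, at 10.46, 10.78, 9.87 and 9.96 after miR-CTR and at 10.44, 10.25, 9.45 and 9.33 after miR-16. The late values of both series were below 0 h, and those of miR-16 were the lowest of all. The difference was −0.02 at 6 h and −0.53 at 12 h. The late difference was −0.525 ± 0.0516, the called value nearest to the threshold, with −0.42 at 24 h and −0.63 at 48 h. Just outside lay DNAJB5 at 0.50, DNAJC12 at 0.47 and DNAJC24 at −0.425.

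HSPA1B (ENSG00000204388.6, chromosome 6, 31827735 to 31830255, plus strand) lies 9788 bases from HSPA1A. It was 9.4 at 0 h, 8.96, 9.23, 8.52 and 8.49 after miR-CTR and 8.84, 8.87, 8.14 and 8.1 after miR-16, and its late difference of −0.385 ± 0.0815 was not called. It was lower after miR-16 at all 4 times. The 3′UTR of HSPA1B holds 2 miR-16 matches of the 7mer-m8 kind, and none was found in that of HSPA1A. Another guide that the study lists was taken as that of miR-CTR, which is not certain. This guide has an 8mer in the 3′UTR of HSPA1B, and no 7mer or 8mer was found in that of HSPA1A. The miR-16 matches are shown because the genes differ mainly outside the coding region.
HSPA1B, 7mer-m8, chr6:31829935-31829941: ctcaaggacttTGCTGCTgttttcctatg
HSPA1B, 7mer-m8, chr6:31829973-31829979: cttcagctcttTGCTGCTtcacttctttg

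CRYAB (ENSG00000109846.7, chromosome 11, 111908565 to 111923722, minus strand) encodes αB-crystallin, a small heat shock protein of lens, muscle and many tumors. Its values were 11.84 at 0 h, 11.64, 11.78, 11.52 and 11.28 after miR-CTR and 11.88, 11.94, 12.1 and 11.96 after miR-16. All miR-16 libraries were above all transfected miR-CTR libraries and also above 0 h. CRYAB thus fell to 73.7% of its 0 h level late after miR-CTR and stood at 114.0% after miR-16. The late difference was 0.63 ± 0.025, which is a level 1.55 times that with miR-CTR.

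HSPB2 (ENSG00000170276.5, chromosome 11, 111912242 to 111914093, plus strand), a muscle-type small heat shock protein, is annotated inside the span of CRYAB on the opposite strand. It stood at 7.87 at 0 h, at 7.95, 7.91, 7.74 and 7.35 after miR-CTR and at 7.88, 7.95, 8.06 and 8.29 after miR-16. The series met at 6 and 12 h and moved apart at 24 and 48 h, down after miR-CTR and up after miR-16. The late difference was 0.63 ± 0.0951, the same value as that of CRYAB, but with only 0.32 at 24 h and 0.94 at 48 h. The annotated exons of the pair share 626 bases, and how reads of that stretch were assigned is not given in the sources used here and was not tested.

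**Figure D3:**
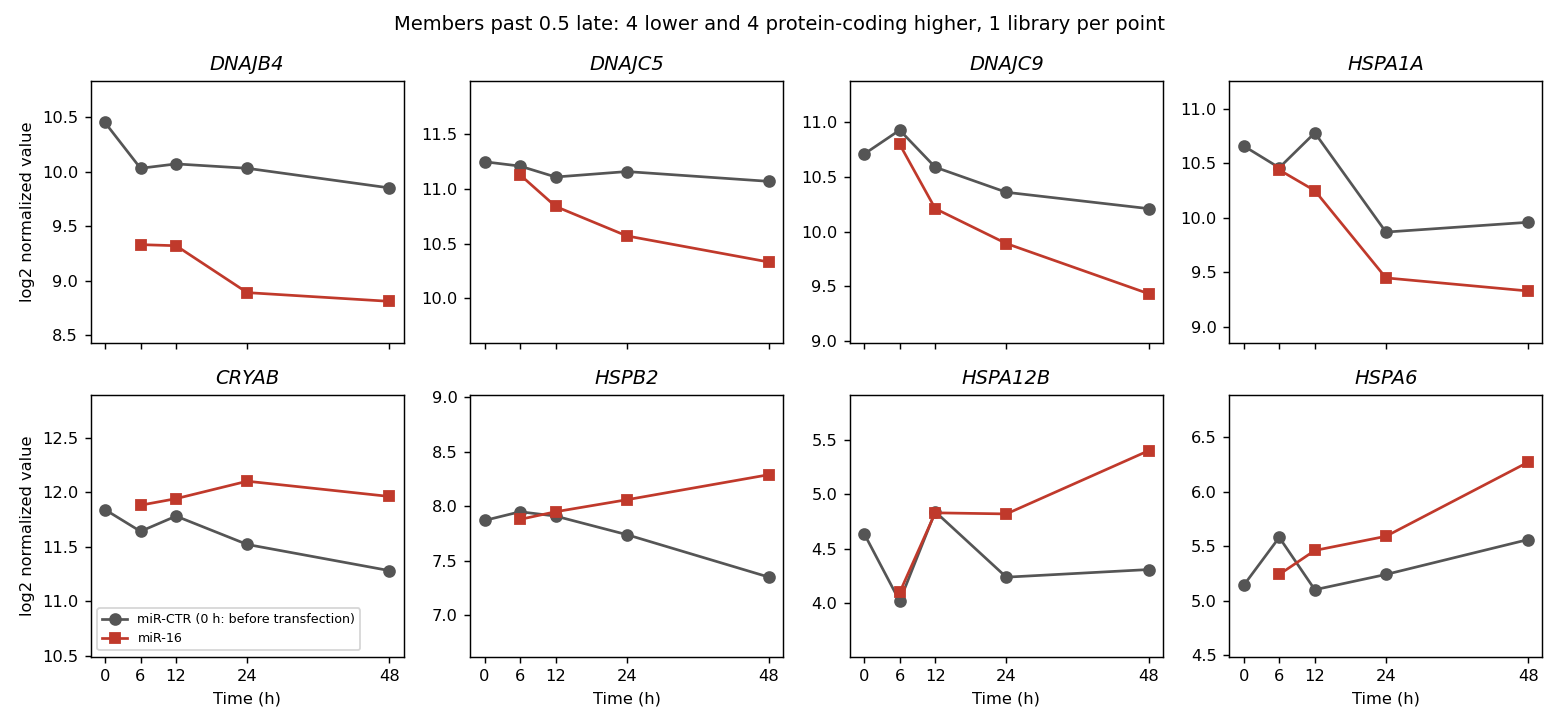
Log2 normalized values over time (h) of the 4 lower and the 4 protein-coding higher members, 1 library per point, with a vertical range of equal size in each panel; grey circles are miR-CTR, with 0 h before transfection, and red squares miR-16. DNAJB4 is separated from 6 h on, DNAJC5 and DNAJC9 separate with time, and the HSPA1A series are apart from 12 h on. In CRYAB and HSPB2 the 2 series are furthest apart at 24 and 48 h.

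The other higher members were low in this cell line. HSPA12B, a distant HSP70 relative known from endothelium, was 4.64 at 0 h, 4.02, 4.84, 4.24 and 4.31 after miR-CTR and 4.1, 4.83, 4.82 and 5.4 after miR-16, with 14 reads in its lowest library. Its late difference was 0.835 ± 0.283. HSPA6, a strictly inducible HSP70, was 5.14 at 0 h, 5.58, 5.1, 5.24 and 5.56 after miR-CTR and 5.24, 5.46, 5.59 and 6.27 after miR-16, and its late difference was 0.53 ± 0.204, with 0.35 at 24 h and 0.71 at 48 h. Under quantile normalization it was 0.389, and the call was lost. The miR-16 library at 48 h was the highest of the 9 for both genes, and the earlier miR-16 libraries lay within or at the edge of the miR-CTR range.

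The pseudogenes HSP90AA5P and HSP90AB2P had late differences of 0.98 ± 0.3 and 0.76 ± 0.184 and early ones of 0.80 ± 0.254 and 0.695 ± 0.184. HSP90AA5P was 4.96 at 0 h, 3.95 to 4.74 after miR-CTR and 4.6 to 5.46 after miR-16. HSP90AB2P was 6.36 at 0 h, 5.24 to 5.9 after miR-CTR and 5.71 to 6.89 after miR-16, and its differences were 1.31, 0.08, 0.47 and 1.05 at 6, 12, 24 and 48 h. In both pseudogenes the ranges of the mimics overlapped. They resemble the far more abundant HSP90AA1 and HSP90AB1, whose late differences were −0.18 ± 0.00427 and −0.015 ± 0.00783, so the assignment of their reads is uncertain.

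Complete separation of the 8 transfected libraries was a second way to read the table. It was met by 3 members in the lower direction (DNAJB4, DNAJC16 and DNAJC24), where 3.75% of all genes met it, and by 1 member in the higher direction (CRYAB), where 3.81% did. DNAJC24, a J-domain protein of diphthamide synthesis, was 7.97, 8.07, 8.16 and 8.21 after miR-CTR and 7.59, 7.74, 7.74 and 7.78 after miR-16, with 8.13 at 0 h. DNAJC16 was 9.02, 8.83, 8.76 and 8.82 after miR-CTR and 8.62, 8.71, 8.45 and 8.52 after miR-16, with 8.63 at 0 h. Their late differences, −0.425 ± 0.0918 and −0.305 ± 0.0727, were smaller than 0.5. Of this pair DNAJC16 holds 3 miR-16 sites and DNAJC24 none.

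The 4 times can also be taken as pairs. A limma fit of mimic plus time over the 8 transfected libraries leaves 3 residual degrees of freedom, but it counts the 4 times as replicates of 1 constant difference, which the DNAJC9 and HSPB2 values above do not show. At a Benjamini-Hochberg adjusted p under 0.05 over all genes, 7 members were lower, or 10.0%, where 5.73% of all genes were, and 4 were higher, or 5.71%, where 4.93% were. The lower members were DNAJB4, DNAJC5, DNAJC9, HSPA1A, HSPA1B, DNAJC16 and DNAJC24, and the higher ones CRYAB, DNAJB5, HSP90AA5P and HSP90AB2P. DNAJB4 had a mean difference of −0.907 ± 0.0844 in this fit (adjusted p = 0.00242) and was lower at 4 of 4 times. CRYAB had one of 0.415 ± 0.085 (adjusted p = 0.0188) and was higher at 4 of 4 times. HSPB2 (adjusted p = 0.192), HSPA12B (0.254) and HSPA6 (0.372) did not pass.

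These calls rest on few pairs. Without the 24 h pair no member and no gene of the table passed. In that limma fit 12 of 70 members and 2496 of 14839 genes had an unadjusted p under 0.05. Without the 12 h pair DNAJB4 (lower) and CRYAB (higher) passed, 1.43% of the members each, where 1.25% of all genes were lower and 1.32% higher. Without the 6 h pair 6 members were lower and 5 higher, or 8.57% and 7.14%, where 8.7% and 7.48% of all genes were. Without the 48 h pair 5 were lower and 2 higher, or 7.14% and 2.86%, where 4.26% and 3.75% of all genes were. The adjusted p of DNAJB4 lay between 9.61e-06 and 0.0562 when 1 pair was left out, and that of CRYAB between 0.00752 and 0.174.

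Among the 4 lower members 3 hold a seed site and HSPA1A does not. None of the 4 protein-coding higher members holds a miR-16 site. For all protein-coding genes the shares were 52.7% of the 632 lower genes and 21.1% of the 734 higher genes. Of the 55 members not called, 17 hold a miR-16 site too, or 30.9%. Whether the sites act on these members was not tested. The 3 members with an 8mer stood apart, with −1.09 for DNAJB4, −0.18 ± 0.0302 for HSPA4L and 0.07 ± 0.0233 for DNAJC10. HSPA4L is an HSP110 relative with 3 sites in a 3′UTR of 7859 bases, and DNAJC10 encodes a disulfide reductase of the endoplasmic reticulum with 3 sites in an annotated 3′UTR of 17332 bases. The median late difference over all genes with an 8mer was −0.165, that over genes with 7mers only −0.07 and that over genes with none 0.015. The median 3′UTR lengths of these groups were 3351, 2526 and 1061 bases, and length was not accounted for. The guide taken as that of miR-CTR, which is not certain, has sites as well. They were in 11.2% of the lower genes, 25.6% of the higher and 14.7% of all protein-coding genes. DNAJC5 holds 1 of them among the 4 lower members, and the 4 protein-coding higher members hold none. Their effect was not tested.

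Sites for miR-16 were also present in abundant or well known members whose late values stayed close to miR-CTR. HSPA8 has a 7mer-A1 and a late difference of 0.08 ± 0.00554, which changed sign to −0.073 under quantile normalization. DNAJA1 has a 7mer-m8 and one of −0.12 ± 0.0167, and DNAJB6, a strong suppressor of protein aggregation, has a 7mer-m8 and one of 0.015 ± 0.0293. DNAJB5 has a 7mer-m8 and stood in the opposite direction at 0.50.

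By role, the uncalled members lay between −0.425 for DNAJC24 and 0.50 for DNAJB5. The cytosolic HSP70 genes spread from −0.525 for HSPA1A to 0.53 for HSPA6, with −0.205 for HSPA14, and the class A J-domain genes from −0.23 for DNAJA2 to −0.06 for DNAJA4. HSPA12A, a relative of HSPA12B, was 0.415. The late differences were 0.00 ± 0.0208 for DNAJB1, the main heat-inducible J-domain protein, 0.10 ± 0.0107 for HSPA4 and 0.07 ± 0.0134 for HSPH1, both HSP110 nucleotide exchange factors. The 9 members of the endoplasmic reticulum had no call, with −0.065 ± 0.0119 for HSPA5, 0.11 ± 0.00977 for HSP90B1, −0.285 ± 0.0335 for DNAJC3 (an inhibitor of the kinase PERK) and −0.075 ± 0.0657 for DNAJB9. The 9 mitochondrial members had none either, with −0.11 ± 0.01 for HSPA9, 0.09 ± 0.00854 for HSPD1 and 0.235 ± 0.0275 for HSPE1, whose exons share 281 bases with those of HSPD1 on the other strand. Of all genes 5.73% were lower and 7.76% higher late, so few calls or none are expected among 9 genes of either compartment. HSPB1, an abundant small heat shock protein, stood at −0.01 ± 0.0141, in contrast to CRYAB. Differences as small as these exceed counting error in the abundant genes, but at 1 library per condition they cannot be set against the spread between cultures.

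The partners of the family were taken from a list of 28 measured co-chaperones and heat shock factors. CHORDC1, an HSP90 partner, was lower with a late difference of −0.615 ± 0.0337, and no gene of the list was higher. CHORDC1 is thus 1 lower call of 28, or 3.57%, beside the 5.73% of all genes given above. CHORDC1 fell by 1.125 late relative to 0 h after miR-16, and by 0.51 after miR-CTR. BAG5, an HSP70 nucleotide exchange factor, had all 4 miR-16 libraries below all transfected miR-CTR libraries, with a late difference of −0.20 ± 0.0368. HSF1 had a late difference of 0.17 ± 0.021. The median of the list was −0.018. Since 0 h, 6 genes of the list (21.4%) were lower by more than 0.5 late in each series, where 9.79% of all genes were after miR-CTR and 11.7% after miR-16, and none was higher. BAG2, BAG4, CHORDC1 and HYOU1 were among the 6 in both series, which share the 0 h library.

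The larger movement of the family was that of both series away from 0 h. In the late window 17 members were more than 0.5 below 0 h after miR-CTR, or 24.3%, where 9.79% of all genes were, and 1 was above, where 11.0% of all genes were. With miR-16, 19 members were below, or 27.1%, where 11.7% of all genes were, and 6 were above, where 14.1% were. The median late change of the members was −0.238 after miR-CTR and −0.25 after miR-16, beside 0.00 and −0.005 for all genes. The pseudogenes added to the counts below 0 h, and without them 12 of 64 members (18.8%) were below after miR-CTR and 17 (26.6%) after miR-16. Both series are compared with the same 0 h library, so their counts are not independent of each other. Mimic transfection, medium and time in culture cannot be told apart in this comparison.

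The same direction was found without the 0 h library. From the early to the late window, 11 members fell by more than 0.5 after miR-CTR, where 6.07% of all genes did, and none rose, where 8.4% did. With miR-16, 15 members fell by more than 0.5, where 8.5% of all genes did, and 4 rose, where 11.3% did. The median change was −0.172 after miR-CTR and −0.185 after miR-16.

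The members below 0 h in both series include the chaperones of the endoplasmic reticulum with the highest levels. HSPA5 was 14.87 at 0 h, 14.5, 15.07, 14.12 and 13.64 after miR-CTR and 14.65, 14.99, 13.82 and 13.81 after miR-16. Its late level was 50.3% of 0 h after miR-CTR and 48.1% after miR-16. HSP90B1 was 15.3 at 0 h, 14.98, 15.16, 14.61 and 14.11 after miR-CTR and 14.96, 15.22, 14.62 and 14.32 after miR-16, which left 52.1% and 56.3%. In both genes the 6 h libraries were below 0 h, the 12 h libraries were near or above it, and the 24 and 48 h libraries were the lowest.

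Of the list of 8 chaperones that the unfolded protein response induces, 5 were below 0 h by more than 0.5 after miR-CTR and 7 after miR-16, with medians of −0.70 and −0.612. These are 62.5% and 87.5% of the list, where 9.79% and 11.7% of all genes were below. DNAJB9 was in neither count, with late changes of 0.085 ± 0.0809 and 0.01 ± 0.0829. The list also holds HYOU1, SDF2L1 and PDIA4, which are no members, with late changes of −0.65, −0.93 and −0.75 after miR-CTR and of −0.54, −0.955 and −0.62 after miR-16.

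Of the 16 genes of the heat-inducible list, 13 of which are members, 7 were below 0 h by more than 0.5 after miR-CTR (median −0.425), and 6 were below and HSPA6 above after miR-16 (median −0.44). The shares below are 43.8% and 37.5%, where those of all genes were 9.79% and 11.7%, and 14.1% of all genes were above after miR-16. Between the mimics this list had 2 lower genes late (HSPA1A and CHORDC1) and 2 higher ones (HSPA6 and CRYAB), 12.5% each, where 5.73% of all genes were lower and 7.76% higher, with a median of −0.005. HSP90AA1 was 17.5 at 0 h, 17.17, 17.28, 17.04 and 16.76 after miR-CTR and 17.05, 17.29, 16.87 and 16.57 after miR-16, so 66.0% and 58.2% remained late. HSPA8 was 16.54 at 0 h, 16.53, 16.64, 16.01 and 16.01 after miR-CTR and 16.58, 16.52, 16.02 and 16.16 after miR-16, so 69.3% and 73.2% remained. HSPA8 stayed near its 0 h level through 12 h and stepped down between 12 and 24 h in both series. HSP90AB1 changed less, with late changes of −0.25 ± 0.00906 and −0.265 ± 0.00925.

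HSPB7, a small heat shock protein of heart muscle, had the largest late change after miR-CTR. It was 9.89 at 0 h, 10.06, 9.93, 8.78 and 7.61 after miR-CTR and 10.08, 9.89, 8.8 and 8.16 after miR-16. The late level was 30.9% of 0 h after miR-CTR and 37.6% after miR-16, and the fall began between 12 and 24 h. DNAJC6, the neuronal auxilin that uncoats clathrin vesicles, was 7.55 at 0 h, 5.86 at 48 h after miR-CTR and 5.89 after miR-16. DNAJC27, a J-domain protein with a GTPase fold, rose instead, with late changes of 0.62 ± 0.172 and 0.845 ± 0.171.

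**Figure D4:**
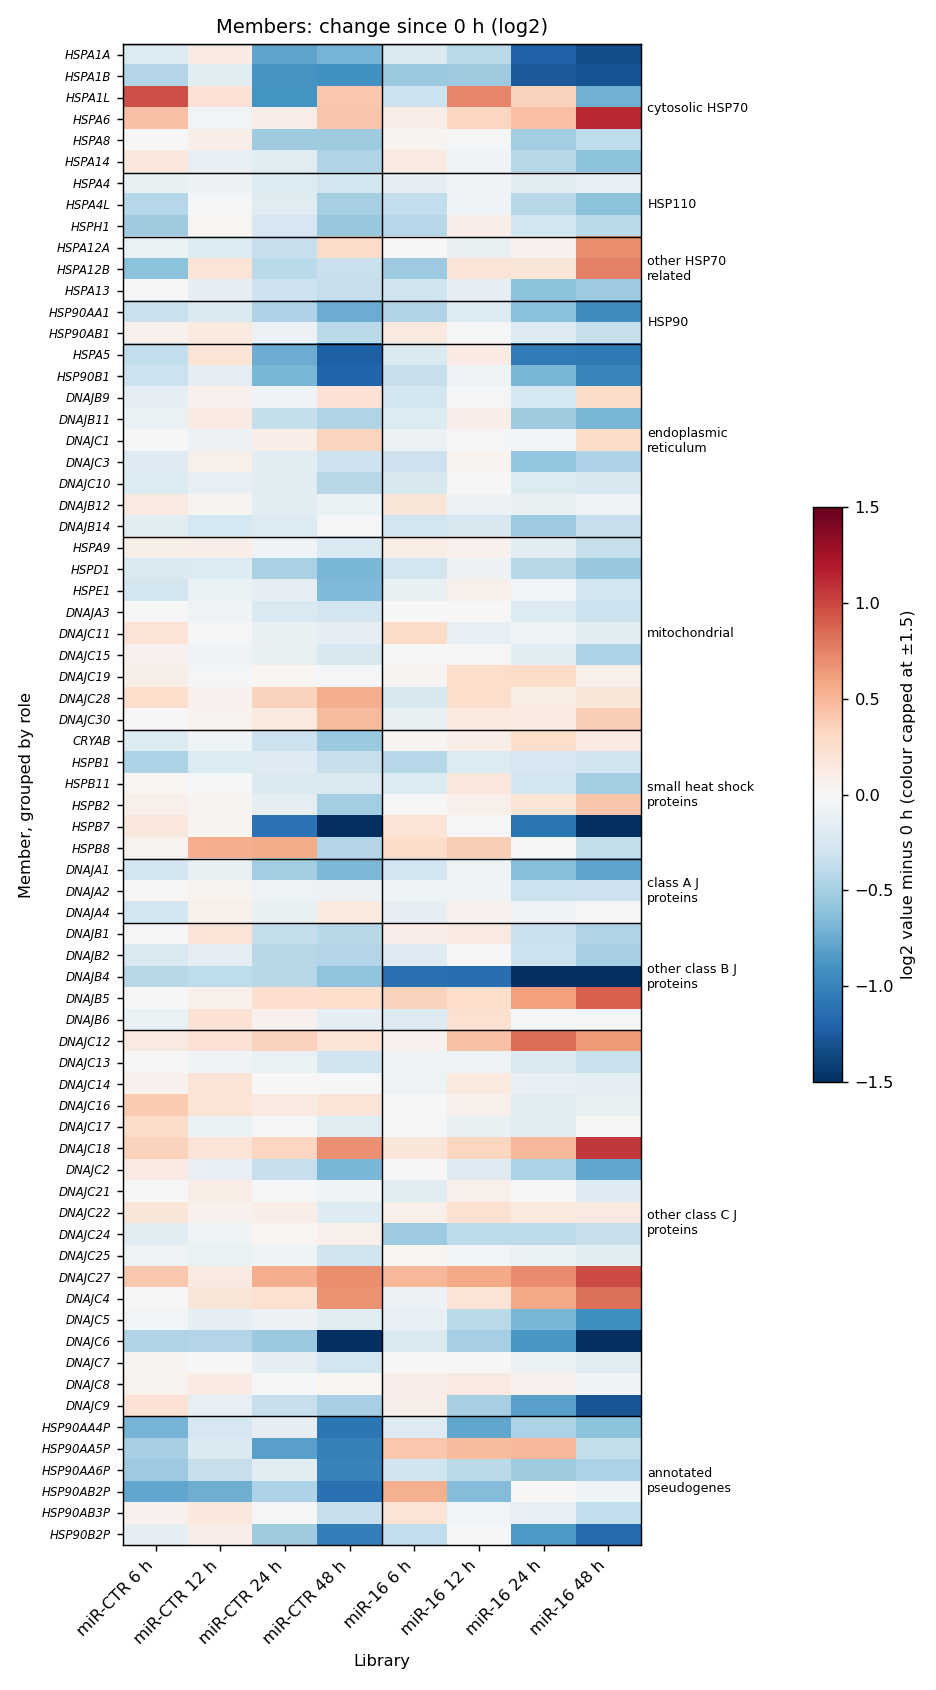
Change of each member since 0 h (log2, blue lower and red higher, colour capped at 1.5 in size) in the 8 transfected libraries, 1 column per library and 1 row per member, grouped by role. The rows of HSPA5, HSP90B1, HSPB7 and HSPA1A turn blue at 24 and 48 h with both mimics, while the DNAJB4 row is darker after miR-16 from 6 h on.

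**Figure D5:**
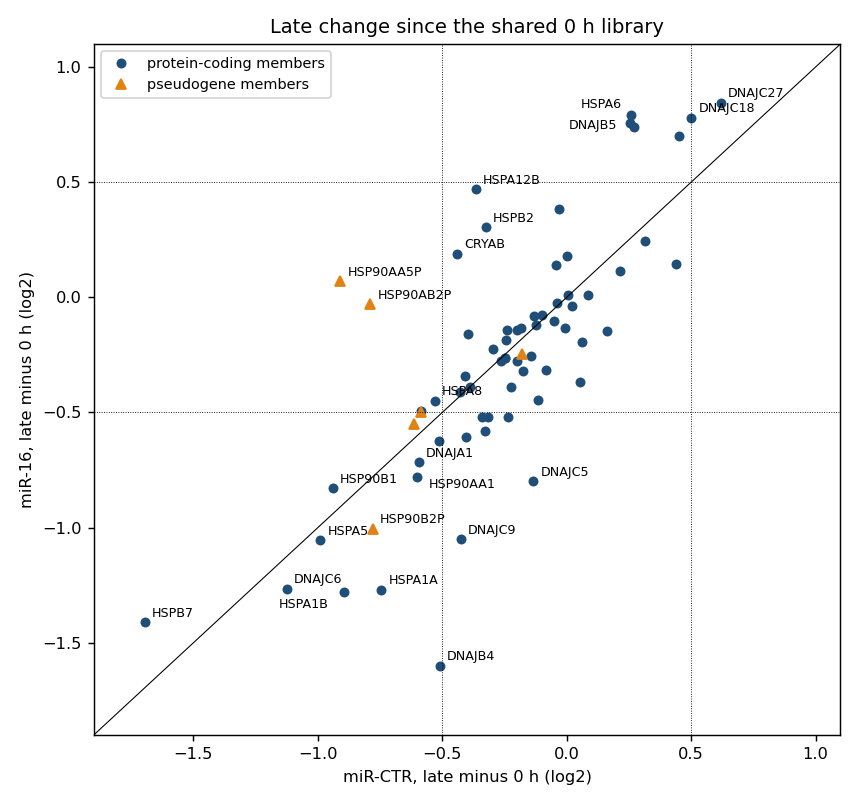
Late change since 0 h (log2) of each member after miR-16 against that with miR-CTR; the diagonal marks equal change, dotted lines mark 0.5 in size, and both axes use the same 0 h library. HSPA5 and HSPB7 lie near the diagonal far below 0, DNAJB4, DNAJC5 and DNAJC9 lie below it, and CRYAB and HSPB2 lie above it.

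Heat shock elements were then looked for in the promoters of the members, since HSF1 binds them. The motif searched was GAANNTTCNNGAA or TTCNNGAANNTTC, which are the same element on either strand, in the 300 bases from 250 before to 50 after the RefSeq gene start (GRCh38.p14). Of the 70 members 56 have a promoter entry, and 7 of these held the motif, or 12.5%, beside 0.332% of the 14166 promoters of genes in the deposited table. The 7 were DNAJA1, DNAJB6, HSP90AA1, HSP90AB1, HSPA6, HSPA8 and HSPD1. Examples are shown with the matched bases in capitals, in the direction of transcription. HSPA6 is shown as the inducible gene that was higher late, and the other genes because they fell since 0 h. The examples were thus picked by their values. HSPD1 also fell and is not shown. Neither are HSP90AB1 and DNAJB6, with late changes since 0 h of −0.25 and −0.04 after miR-CTR and −0.265 and −0.025 after miR-16.
HSPA6, chr1:161524466-161524478: cggaaaggTTCGCGAAAGTTCgcggcggc
HSP90AA1, chr14:102087120-102087132: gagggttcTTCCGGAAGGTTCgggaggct
HSPA8, chr11:123062179-123062191: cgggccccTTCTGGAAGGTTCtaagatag
DNAJA1, chr9:33025276-33025288: gccgggcgGAACTTTCCAGAAcgctcggt

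The 7 members with the motif did not move as a group between the mimics: HSPA6 was called higher, a call lost under quantile normalization, and the others lay between −0.18 for HSP90AA1 and 0.09 for HSPD1. Since 0 h, 4 of the 7 fell by more than 0.5 late after miR-CTR, and 2 fell and HSPA6 rose after miR-16. Of the 49 members with a promoter entry and no motif, 8 fell after miR-CTR and 14 fell after miR-16. These are 57.1% and 16.3% of the members with and without the motif after miR-CTR and 28.6% of either after miR-16, where 9.79% and 11.7% of all genes fell. HSPA6 alone is 14.3% of the 7, where 14.1% of all genes rose after miR-16. The absence of an exact match says only that these letters are not in the window.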

How the data were processed

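The authors sequenced polyadenylated RNA of MP41 cells and deposited 1 table of 14839 gene symbols in 9 libraries. Per the labels, the submitters' processing notes name FastQC, STAR 2.4.0a, featureCounts, Subread 1.5.0-p3 and the builds hg38 and GRCh38. The annotation, the use of strand, the size factors and the filter on low genes are not given in the sources used here. The deposited values are log2 values with 2 decimals; 2 to the power of a value, minus 1, falls in low genes on whole multiples of a step that differs between libraries. Reads were estimated by dividing by that step. In each library 100% of the values up to 5 normalized reads (2 to 25 genes) lay within 0.1 of a whole number of reads. The step was chosen to bring low values, these among them, closest to whole multiples, so this share is no independent check.

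The columns number the harvests without hours, and were taken in ascending order as 0, 6, 12, 24 and 48 h.

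Differences were computed with Python 3.11 on the deposited log2 values, and counting standard errors from the estimated reads, so depth limits low genes most. A call is a difference past 0.5 in size. There are no replicates, so no test was planned. A fit of mimic plus time with the 4 times as pairs (limma 3.58.1 in R 4.3.3, variance trend, Benjamini-Hochberg adjustment over 14839 genes) was added after the values were seen. Scripts were tested on simulated data. The members, the lists and the threshold were chosen with earlier results of these data known. The text names every member called early or late, a fixed set of core members, the 5 members with the highest mean, members with an 8mer, co-chaperones called late and HSF1. Other members were chosen after their values were seen. Symbols were matched to GENCODE version 29, which gave 1 gene for 87.62% of symbols and for 69 members. The alternatives were a 1.5-fold threshold, quantile normalization, median centring, a trimmed mean of M values, leaving out the lowest 25% of genes by mean value, single times and 0 h as reference. The early window as reference and protein-coding members alone were added after the values were seen.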

Additional observations from a re-analysis of the deposited data

Results flagged for a closer look

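HSPA1L, a testis-type HSP70 gene that lies 398 bases from HSPA1A on the opposite strand, had differences of opposite sign at the late times. Its difference, miR-16 minus miR-CTR, was 1.25 at 24 h and −1.13 at 48 h, both past 0.5 and with 95% counting intervals that leave out 0. The change between the times itself was not tested. The gene was 3.96 at 0 h, 4.93, 4.18, 3.06 and 4.37 after miR-CTR and 3.64, 4.69, 4.31 and 3.24 after miR-16, and the libraries held as few as 7 reads for it, so the mean of both times, 0.06 ± 0.395, was not called.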

How the results depend on the processing

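With the 4 times as pairs, a limma fit added after the values were seen, 7 members were lower and 4 higher at an adjusted p under 0.05. These are 10.0% and 5.71%, where 5.73% and 4.93% of all genes were. With 1 library per condition no replicate could be left out. The scaling moved the median of all genes by at most 0.01. The library medians were made equal, or a trimmed mean of M values or quantile normalization was used. The late higher count went from 6 to 7 by medians and to 5 by quantiles, which lost HSPA6 (0.389). Counts stayed within 1.5 times of those given, except 1 higher member at 12 h by quantiles and 2 above 0 h after miR-CTR by the trimmed mean. The 1.5-fold threshold gave 1 lower and 1 higher member at 12 h and 2 higher at 24 h. Without the lowest 25% of genes by mean value, higher members numbered 2 late, 0 early and 1, 0, 1 and 5 in the order of the harvests, and 1 member was lower at 6 h. Protein-coding members alone gave 0 higher early, 0 at 6 h and 1 at 12 h. Past 0.5 at both times of a window were 2 lower (DNAJB4 and DNAJC5) and 3 higher members late, and 1 higher early. Shares of all genes are not given under these changed thresholds and filters, so the counts show only how the calls depend on the settings. Single times gave 2 lower members at 6 h and 3 at 12 h in place of 1 early, beside the shares of all genes given above. For the co-chaperones they gave 3 lower at 48 h, or 10.7%, where 8.96% of all genes were. They also gave 1 higher at 24 h, or 3.57%, where 7.24% of all genes were. With 0 h as the reference for miR-16, 19 members were lower late and 2 early, 1 was higher early, 6 co-chaperones were lower, the median late difference became −0.25 and HSP90AB2P reversed to −0.03, as this reference carries the change since 0 h that miR-CTR shares. The early window as reference left 11 members lower and 0 higher after miR-CTR. Counting 8mers alone, 4.76% of members hold a site. Of the late differences of the 29 named members quantile normalization moved 6, and HSPA8 went to −0.073. The call lost by it, given above, was that of HSPA6, a low gene. Depth limits HSPA6, HSPA12B and the pseudogenes most.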

Other observations

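The chaperonin CCT and the prefoldins, which fold actin and tubulin, were looked at through a list of 14 genes. None was past 0.5 late between the mimics, where 5.73% of all genes were lower and 7.76% higher, and the median was 0.08. TCP1 (−0.685 after miR-CTR and −0.69 after miR-16) and VBP1 (−0.54 and −0.55) were the genes more than 0.5 below 0 h late. CCT3 had all 4 miR-16 libraries above all transfected miR-CTR libraries, as 3.81% of all genes did, with a late difference of 0.185 ± 0.00985.

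The inducible chaperones had mostly small positive changes between 6 and 12 h and larger negative ones between 12 and 24 h in both series, a pattern noticed in these data. Of the 8 chaperones of the unfolded protein response list, 8 were higher at 12 h than at 6 h and 8 were lower at 24 h than at 12 h with either mimic, with medians of 0.25 and −0.54 after miR-CTR and 0.325 and −0.63 after miR-16. Of the 16 genes of the heat-inducible list 15 were higher at 12 h than at 6 h after miR-CTR and 13 after miR-16, and 14 were lower at 24 h than at 12 h in each. Few of the changes from 6 to 12 h were past 0.5: 1 and 0 genes of the former list and 2 and 1 of the latter after miR-CTR and miR-16, where 3.3% and 4.8% of all genes rose by as much. From 12 to 24 h 5 and 7 genes of the former list and 4 and 4 of the latter fell by more than 0.5, where 3.3% and 3.83% of all genes did. HSPA6 went the other way from 6 to 12 h after miR-CTR, with −0.48. The median of all genes was 0.00 for each of these steps. HSPH1 was 13.35 and 13.91 at 6 and 12 h after miR-CTR and 13.45 and 13.98 after miR-16.

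The 18 rows set aside by the naming rule can be read beside their parents. Of these 13 had a late difference above 0 and 5 below, with a median of 0.13, and 3 were higher and 1 (HSPD1P16, −0.825 ± 0.442) lower by more than 0.5. Of all genes 49.1% were below 0, and 7.76% were higher and 5.73% lower by more than 0.5. Among the called rows HSPD1P16 and HSPB1P2 were low, with 4.51 and 5.18 at 0 h. HSPA9P1 stood at −0.365, HSPE1P4 at −0.34, HSPA8P9 at −0.05 and HSPD1P6 at 0.065. HSPD1P1, at 11.15 before transfection, had late changes since 0 h of −0.7 after miR-CTR and −0.275 after miR-16, beside −0.585 and −0.495 for HSPD1. HSPD1P5 had a late difference of 0.845 ± 0.106 and all 4 miR-16 libraries above all transfected miR-CTR libraries, beside 0.09 for HSPD1. HSPA8P5 had a late difference of 0.56 ± 0.115, beside 0.08 for HSPA8. How reads of parent and copy were divided was not tested.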
